A study of Mus musculus with 4 samples.

Results

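The mouse Hox genes were read on 4 Affymetrix arrays of differentiating embryonic stem cells with and without Snai1. Members were all genes whose array symbol is Hoxa, Hoxb, Hoxc or Hoxd followed by a number and that have a probe set naming no other gene. This gave 33 genes of 18193 on the array, or 33 of the 39 Hox genes in RefSeq, read by 48 probe sets. Hoxb8 and Hoxd4 are named only by probe sets that also name a neighbouring Hox gene, and the rest were not analysed here.

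Hox genes encode transcription factors with a DNA-binding homeodomain, and mammals carry them in 4 clusters, A to D. Genes of the same number in different clusters are paralogs that descend from a shared ancestor. Low numbers lie at the 3' end of a cluster, come on early and mark the hindbrain and neck, whereas high numbers come on later and mark the trunk, the tail and the ends of the limbs. Cdx factors, Wnt, FGF and retinoic acid signals switch the clusters on as the body axis extends, Polycomb proteins keep silent genes closed, and Pbx and Meis proteins bind DNA together with Hox proteins.

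The 4 groups had 1 array each. They were an embryoid body with the genotype F/F (the control) and a Snai1 knockout embryoid body, both on day 5, and a control (F/F) and a Snai1 knockout teratoma, both at week 6. Embryoid bodies are stem cell aggregates, formed here in hanging drops and then kept in suspension, and teratomas are tumours of mixed tissues that grew from stem cells injected subcutaneously into the hind limbs of nude mice (male, 6 weeks old). Nude mice lack T cells but keep other host leukocytes, muscle and connective tissue, and how many cell clones or tumours stand behind each array is not given in the labels. Snai1 encodes a zinc-finger repressor that acts in gastrulation and in the change from epithelial to mesenchymal cells. Its probe set read 4.78 in the control and 3.45 in the knockout embryoid body, and 3.59 and 3.44 in the control and knockout teratoma. Of these values only that of the control embryoid body reaches the floor defined below, which makes the embryoid body difference at least 1.03-fold. The labels also do not say which part of the gene is deleted, so this reading is a weak check.

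Levels are log2 RMA values, and each array was given a floor, the median of its non-control probe sets, at 4.71 for control and 4.73 for knockout embryoid bodies and 5.08 for control and 5.04 for knockout teratomas. The floor is a chosen cut and not a measured background. A value below the floor was treated as not measured and was set to the floor before a difference was taken. Where only 1 array reached its floor the difference is a lower limit on the size, given here with "at least" or called a bound. A gene is called higher or lower at a log2 difference of 1, which is 2-fold. With 1 array a group there is no spread between replicates, no test and no p-value. Probe sets of the same gene, the only spread within these arrays, had a pooled SD of 0.29 (embryoid bodies) or 0.28 (teratomas) for knockout minus control, and of 0.66 (control cells) or 0.65 (knockout cells) for teratoma minus embryoid body. In such bulk RNA, fewer cells of a type and less RNA per cell cannot be told apart.

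Of the 33 Hox genes, 13 stood at or above the floor in the control embryoid body, 8 in the knockout embryoid body and 10 in each teratoma. Across all 18193 genes the shares ran from 64.9% to 65.7%, with no such step between the embryoid bodies. On the chosen probe set of each gene, 17 members reached the floor on no array. On all 4 arrays 5 did so: Hoxb2, Hoxb3, Hoxb4, Hoxd8 and Hoxd9. By their other probe set, Hoxa5 and Hoxa9 were also at or above the floor on all 4. Members below every floor were mostly of high number on the chosen probe sets, with 10 of the 14 posterior genes (paralogs 9 to 13) below the floor everywhere, against 4 of the 10 anterior genes (paralogs 1 to 4) and 3 of the 9 middle genes (paralogs 5 to 8). Hoxa13 and Hoxd13, which pattern digits and the genital tubercle, Hoxb13, known from the tail and prostate, and Hoxc13, known from hair follicles, read at most 4.34 on any array.

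**Figure D1:**
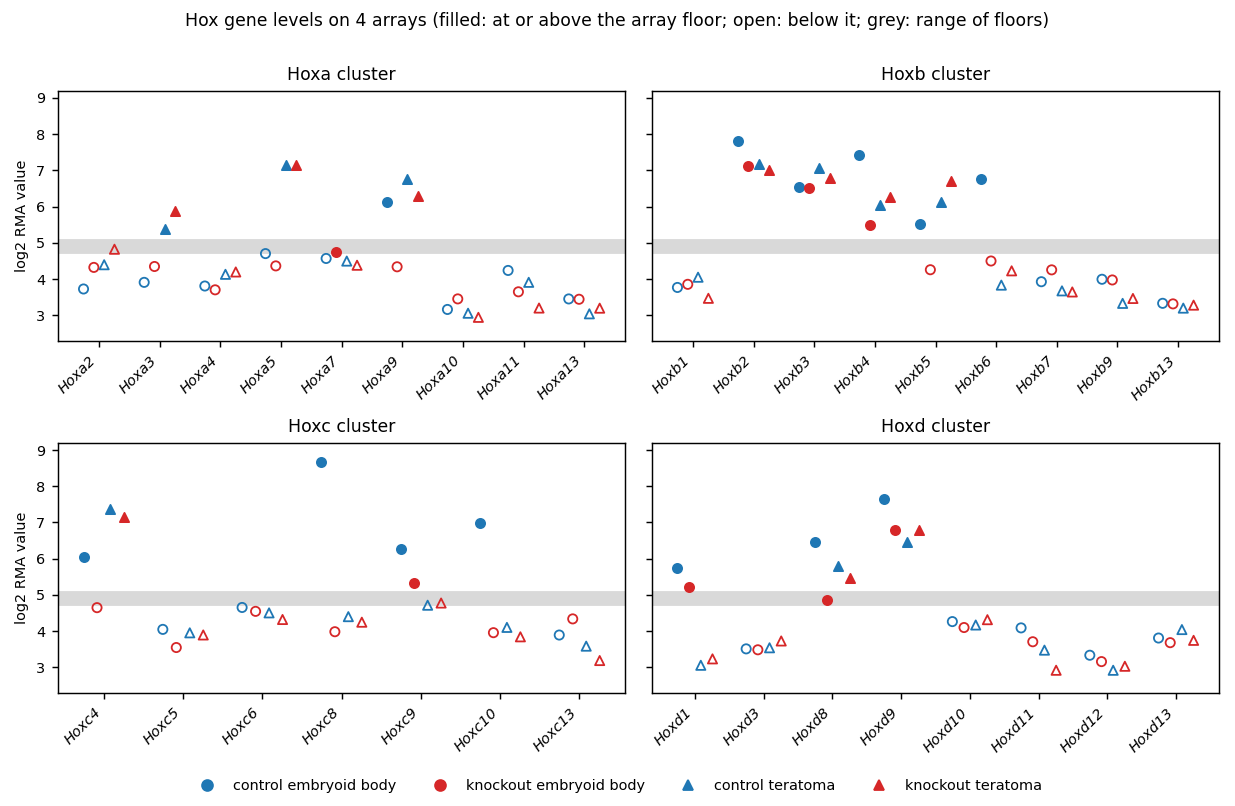
Log2 RMA value (vertical axis) of each of the 33 Hox genes (horizontal axis, in paralog order within a cluster) on the 4 arrays, 1 array per group; filled points are at or above that array's floor, open points below it, and the grey band spans the 4 floors. Hoxc8, Hoxc10 and Hoxb6 are filled only for the control embryoid body, and Hoxa3 and Hoxa5 only for teratomas. The other Hoxa5 probe set, not plotted, was above the floor on all 4 arrays. Probe sets differ in brightness, so heights are compared between arrays of 1 gene, not between genes.

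The clusters differed in where their members were measured. In the Hoxc cluster, 4 of 7 members reached the floor in the control embryoid body and 1 in each of the other 3 arrays. In the Hoxa cluster it was 1 of 9 in each embryoid body and 3 in each teratoma. This contrast rests on the chosen probe sets. In the control and knockout embryoid body the other Hoxa5 probe set read 6.06 and 5.61, and the other Hoxa9 probe set 5.47 and 5.32, all above the floor. The Hoxb counts were 5 and 3 of 9 in control and knockout embryoid bodies and 4 in both teratomas, and the Hoxd counts 3 and 3 of 8 and then 2 and 2. By number, the step from control to knockout embryoid body went from 5 to 4 anterior, from 4 to 2 middle and from 4 to 2 posterior genes.

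**Figure D2:**
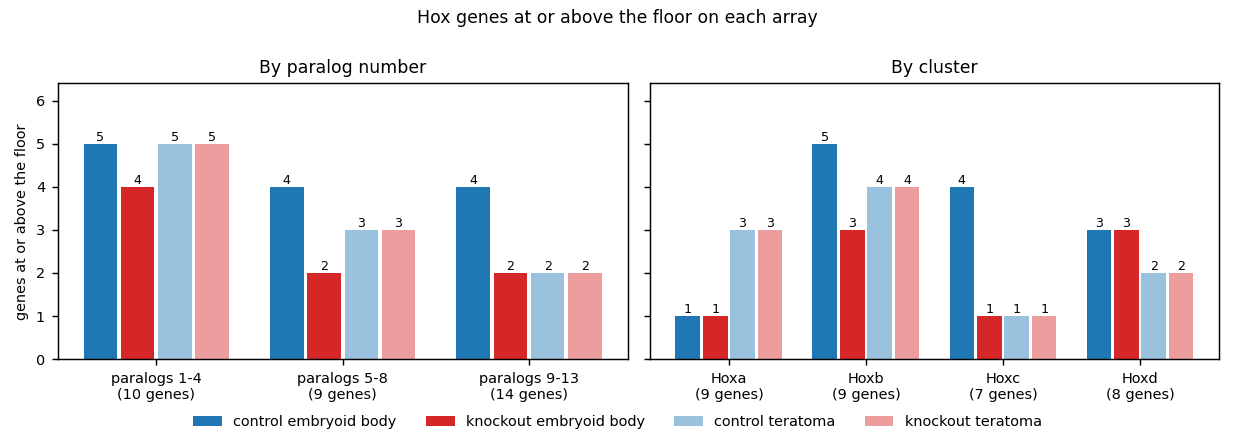
Number of Hox genes at or above the floor (vertical axis) on each of the 4 arrays, by paralog number (left) and by cluster (right), with the number of genes read under each group. The control embryoid body bar reaches 4 in the Hoxc cluster and the other 3 arrays reach 1.

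The first comparison set the Snai1 knockout embryoid body against its control on day 5. Hoxc8, Hoxc10, Hoxb6, Hoxb4, Hoxd8, Hoxa9 and Hoxc4 were lower in the knockout by more than 2-fold, which is 2 anterior, 3 middle and 2 posterior genes. The other 7 measured genes, Hoxc9, Hoxd9, Hoxb5, Hoxb2, Hoxd1, Hoxb3 and Hoxa7, differed by less than 2-fold or had a bound under it, and no Hox gene was 2-fold higher.

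Hoxc8, a marker of the brachial and thoracic trunk, read 8.68 in the control embryoid body, 3.98 in the knockout embryoid body, 4.40 in the control teratoma and 4.25 in the knockout teratoma. The control embryoid body stood alone above the floor, at least 15.5-fold over the knockout, which ranked Hoxc8 18th from the lowest of 12282 genes measured. Hoxc10, a lumbar and hind limb gene of the same cluster, read 6.99 in the control embryoid body against 3.96, 4.10 and 3.84 in the knockout embryoid body and the control and knockout teratomas, a difference of at least 4.77-fold in embryoid bodies. Hoxc9, which lies between them and specifies thoracic motor columns, kept a measurable level at 5.33 against 6.28, a difference of -0.95, and was below the floor in both teratomas at 4.72 and 4.78. The neighbours on both sides of Hoxc9 were therefore below the floor in the knockout while Hoxc9 was not. Hoxc4, a neck-level gene at the 3' end of the cluster, read 6.04 in the control and 4.65 in the knockout embryoid body, at least 2.47-fold lower.

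In the Hoxb cluster, Hoxb6 and Hoxb4 were 2-fold lower. Hoxb6, expressed in lateral mesoderm, read 6.77 in the control embryoid body, 4.50 in the knockout embryoid body, 3.83 in the control teratoma and 4.23 in the knockout teratoma, at least 4.11-fold lower in the knockout embryoid body. Hoxb4, known for its effect on blood stem cells, was measured on all arrays, at 7.42 and 5.50 in control and knockout embryoid bodies, 3.79-fold lower. Hoxb5, a gene of the neck, lung and gut nerves, read 5.51 and 4.26, with a bound of -0.77. Hoxb2 and Hoxb3, which act in hindbrain segments and the pharyngeal arches, read 7.82 against 7.13 and 6.53 against 6.51, differences of -0.69 and -0.02. The other Hoxb3 probe set read 6.14 against 5.68, a difference of -0.46. Hoxb1, an early hindbrain gene, lay below every floor at 3.77, 3.86, 4.05 and 3.47.

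In the Hoxd and Hoxa clusters, 1 gene each was 2-fold lower. Hoxd8, a trunk gene, read 6.46 in the control and 4.85 in the knockout embryoid body, 3.05-fold lower. Its neighbour Hoxd9, expressed in trunk and limb, read 7.64 and 6.80, a difference of -0.84, and Hoxd1, an early gene later used in pain-sensing neurons, read 5.74 and 5.21, a difference of -0.53. Hoxa9, a regulator of blood progenitors, read 6.14 and 4.34, at least 2.65-fold lower. Hoxa7, the only member above 0, read 4.57 and 4.75, a bound of 0.04 that is smaller than the spread between probe sets.

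In total 14 members were measured in embryoid bodies, 7 were 2-fold lower and 0 higher, where 3.98% of 12282 measured genes were lower and 2.18% higher. These counts cannot be read against each other alone, because 6 of the 14 entered only through the control array, where they were high, and so had to be lower. For the 7 members above the floor on both arrays, all differences were below 0, 2 were 2-fold lower and the median was -0.84, beside a median of 0.03, 45.9% below 0 and 3.52% 2-fold lower over the 11469 genes above the floor on both. Without any floor, 8 of all 33 members were 2-fold lower, 26 were below 0 and the median was -0.18, beside 3.11% 2-fold lower and a median of 0.02 for all genes. The median by class was -0.69 over 5 anterior, -1.61 over 5 middle and -1.18 over 4 posterior genes, with the same entry through the control array. With the floor at the 65th percentile of each array, 2 members stayed 2-fold lower, Hoxc8 and Hoxb4, and 5 did not.

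**Figure D3:**
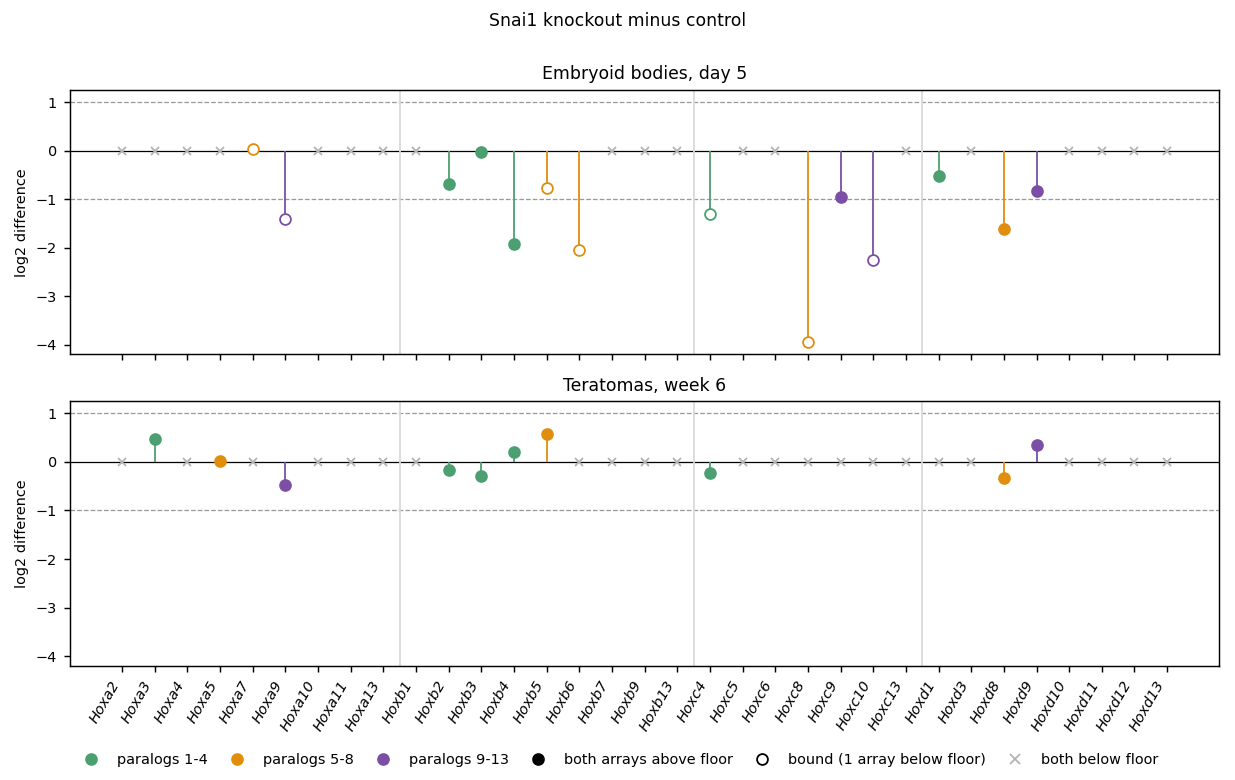
Log2 difference between knockout and control (vertical axis) for each Hox gene (horizontal axis, by cluster and paralog number) in embryoid bodies (top) and teratomas (bottom); colours give paralog classes, open points are bounds, grey crosses are genes below both floors and dashed lines mark 2-fold. In embryoid bodies 13 of the 14 measured genes lie below 0, but 6 of these were above the floor only in the control and had to be lower. All 7 genes above the floor on both arrays lie below 0, beside 45.9% of 11469 such genes over the array. In teratomas all 10 lie between -0.46 and 0.57.

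For the lower genes with more than 1 probe set, Hoxa9, Hoxd8 and Hoxb4, the other probe set differed by less than the chosen one. The other Hoxa9 probe set read 5.47 and 5.32 in control and knockout embryoid bodies, a difference of -0.14, so that the mean of both gives -0.97. The other Hoxd8 probe set read 5.41 and 4.43, a bound of -0.67, and the other Hoxb4 probe set 5.02 and 4.51, a bound of -0.29. Hoxb6 rests on a single probe set with the suffix _a, a suffix that an alternative left out together with _s and _x. Hoxc8, Hoxc10 and Hoxc4 have 1 probe set each, so no second reading exists for them. For Hoxc6, a brachial gene, the chosen probe set lay below every floor, while its other 2 read 5.12 and 5.26 in the control embryoid body and 4.41 and 4.33 in the knockout, bounds of -0.39 and -0.53. For Hoxa5, a gene of the neck and lung, the other probe set differed by -0.45.

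Transcripts beside the members gave further readings. The probe set naming both Hoxb8 and Hoxb7 read 5.92 in the control and 4.22 in the knockout embryoid body, at least 2.27-fold lower, while the probe set for Hoxb7 alone lay below every floor. Hoxb5os, a non-coding transcript that RefSeq places across Hoxb5 and Hoxb6, read 7.20 and 5.73, 2.78-fold lower, and 6.91 and 6.31 in control and knockout teratomas. Of the 2 probe sets naming Hoxd4 and Hoxd3, 1 read 5.04 and 5.07 in embryoid bodies and the other 4.81 and 4.29.

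Genes just outside the clusters were taken from a list of 18 that lie within 1 Mb of a cluster in RefSeq. Of 15 measured in embryoid bodies, 1 was lower and 1 higher, with a median of 0.14. Evx1, a homeobox gene next to Hoxa13, was higher at 6.94 against 5.78. Nfe2, an erythroid regulator near the Hoxc cluster, was at least 18.2-fold lower, from 8.92 to 4.38. Snx10 and Skap2, genes beside the Hoxa cluster with no homeobox, differed by 1.00 (just under 2-fold) and -0.42.

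RefSeq promoter sequences (assembly GRCm38.p6) are shown for Hoxb4, Hoxd8, Hoxc4 and Hoxa9, the 4 of the 7 lower genes that the table holds, to show which sites the stretch just before the start carries. Each line is the 250 bases before the start, 5′ to 3′ on the gene's strand, at chr11:96318017-96318266 (plus strand), chr2:74704365-74704614 (plus), chr15:103034145-103034394 (plus) and chr6:52227371-52227620 (minus). Capitals mark TAAT, the core that homeodomains bind, or ATTA, the same core on the other strand, and CCAAT, a promoter box.
Hoxb4: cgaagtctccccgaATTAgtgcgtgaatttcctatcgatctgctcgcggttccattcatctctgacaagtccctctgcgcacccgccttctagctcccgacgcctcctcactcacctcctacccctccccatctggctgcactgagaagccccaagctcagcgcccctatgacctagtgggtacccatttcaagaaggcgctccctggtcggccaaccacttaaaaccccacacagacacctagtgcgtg
Hoxd8: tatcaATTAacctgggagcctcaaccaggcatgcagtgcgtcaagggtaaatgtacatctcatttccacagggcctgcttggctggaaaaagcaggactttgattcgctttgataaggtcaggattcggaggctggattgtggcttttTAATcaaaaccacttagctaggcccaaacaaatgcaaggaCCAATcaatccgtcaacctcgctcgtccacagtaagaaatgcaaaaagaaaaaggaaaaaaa
Hoxc4: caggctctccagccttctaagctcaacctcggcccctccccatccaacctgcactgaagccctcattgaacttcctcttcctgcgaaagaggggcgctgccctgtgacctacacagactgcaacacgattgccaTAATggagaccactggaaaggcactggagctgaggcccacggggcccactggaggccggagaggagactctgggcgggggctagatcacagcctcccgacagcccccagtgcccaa
Hoxa9: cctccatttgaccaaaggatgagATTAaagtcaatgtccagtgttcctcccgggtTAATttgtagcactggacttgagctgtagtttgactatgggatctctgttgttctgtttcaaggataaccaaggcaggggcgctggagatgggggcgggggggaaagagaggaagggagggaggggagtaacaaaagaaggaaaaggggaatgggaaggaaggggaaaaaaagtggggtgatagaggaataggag

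The 6 motifs below were searched on both strands in the same 250 bases, each with its share of all 32851 promoters in the table. TAAT was in all 4 sequences, in 18 of 24 Hox promoters (75.0%) and in 54.9% of all promoters. CCAAT was in Hoxd8 alone of the 4, in 14 of 24 Hox promoters and in 33.8% of all. The Snail-type E-box CAGGTG was in none of the 4 and in 0 of 24 Hox promoters, beside 17.2% of all promoters. TTTATG, a sequence that Cdx factors bind, was in none of the 4, in 5 of 24 Hox promoters and in 10.8% of all. TGATNNAT, a joint Hox and Pbx sequence, was in none of the 4, in 4 of 24 and in 7.68% of all, and the TATA box TATAAA was in none of the 4, in 4 of 24 and in 12.4% of all. Matches may overlap between motifs, a match is not a bound site, and no match says only that the letters are not in this window.

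The genes known to work with, or upstream of, the Hox clusters were read from lists. Of the TALE cofactors, which bind DNA beside Hox proteins, all 8 on the array were measured in embryoid bodies, 1 was 2-fold lower and 7 were below 0, with a median of -0.44. Meis1 read 6.71 in the control and 5.38 in the knockout, a difference of -1.33, Meis2 9.25 and 8.31 (-0.94), Pbx3 9.52 and 8.80 (-0.72) and Pknox2 7.21 and 6.58 (-0.63). In teratomas 0 of 7 measured cofactors differed by 2-fold and the median was -0.17.

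Of the Cdx and trunk progenitor genes, 6 of 11 were measured in embryoid bodies, 2 lower and 1 higher. Cdx2, an activator of middle and posterior Hox genes, read 7.88 in the control and 6.19 in the knockout, a difference of -1.70, and Nkx1-2, a marker of trunk progenitors, 7.11 and 5.19 (-1.92). Fgf8, a signal of the streak and tail bud, went the other way, from 7.19 to 9.28 (2.09). Cdx1, Cdx4, Wnt3a, Tbx6 and Msgn1 lay below every floor. Both Cdx2 and Nkx1-2 were below the floor in both teratomas.

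Of the retinoic acid genes, 9 of 12 were measured in embryoid bodies, 2 were higher and 0 lower. Cyp26a1, which breaks down retinoic acid, read 9.10 in the control and 11.64 in the knockout, a difference of 2.54, and Rarb, a receptor gene that retinoic acid induces, 7.25 and 8.48 (1.23). Rdh10, which makes the precursor retinal, differed by -0.78. Of 21 Polycomb and trithorax genes 0 differed by 2-fold in embryoid bodies or among the 20 measured in teratomas, with medians of 0.21 and -0.13. The largest in embryoid bodies were the Polycomb genes Pcgf2, Cbx7 and Cbx2 at 0.95, 0.90 and 0.75.

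Of 9 head and forebrain homeobox genes 4 were measured in embryoid bodies, and 2 of them were higher. Otx2, the head selector gene, read 8.18 in the control and 10.34 in the knockout, and Hesx1, a forebrain and pituitary gene, 5.53 and 7.80, differences of 2.16 and 2.28. Six3, a forebrain and eye gene above the floor only in the knockout, had a bound of 0.43, and Lmx1b differed by 0.18, less than the spread between probe sets. In teratomas Otx2 read 8.33 and 7.98 and Hesx1 lay below both floors. Of the hindbrain segment genes 3 of 4 were measured in embryoid bodies, and Egr2, above the floor only in the knockout, was at least 2.11-fold higher there, 5.79 against 4.30, while Epha4 and Fgf3 differed by -0.38 and -0.39. Of 9 limb field genes 8 were measured, 3 were lower and 0 higher, and 2 were above 0. Pitx1 and Tbx4, which mark the hind limb field, read 7.93 and 6.11 in the control and 5.82 and 3.71 in the knockout. The Tbx4 difference is a bound of -1.37. Shh read 7.30 in the control and 6.27 in the knockout. Fgf10 went the other way, from 7.48 to 8.35 (0.87). Tbx4 lay below the floor in both teratomas, at 3.66 and 3.57.

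Several cell type markers also differed between the embryoid bodies, and their part in the Hox difference was not tested. Of 11 fibroblast and mesenchyme markers, 8 were 2-fold lower, with a median of -2.96. The log2 of their summed linear values was 14.46 in the control and 10.49 in the knockout embryoid body, and 14.92 and 14.25 in the control and knockout teratoma. Lum and Postn, matrix genes of mesenchyme, differed by -6.36 and -5.94, and all 11 markers stayed above the floor in the knockout. The other 3 markers, those not 2-fold lower, were above 0, the largest at 0.76. Of 11 leukocyte and blood markers 8 were measured, all below 0 and 3 of them 2-fold lower, with a median of -0.64. Of these 8, 4 were above the floor only in the control and so could only be below 0. The 4 above the floor on both arrays ran from -4.10 to -0.01, and 2 of them were 2-fold lower. The heme synthesis gene Alas2 read 9.37 against 5.28 (-4.10) and the macrophage receptor gene Csf1r 7.13 against 4.90 (-2.24), and the log2 summed level was 10.16 in the control and 8.26 in the knockout. Trunk mesoderm regulators were mixed, with 4 of 9 measured genes higher and 1 lower. The somite and sclerotome genes Pax1, Foxc1 and Foxc2 differed by 2.38, 2.28 and 1.71, and Foxf1, of lateral mesoderm, by -2.31. The list of 9 pluripotency markers had a median of 0.23, with 3 below 0 and only Fgf5 2-fold higher, at 2.17. Nanog, Utf1 and Pou5f1 differed by less than 2-fold, at 0.75, 0.65 and 0.44. Neural markers had a median of 0.11 over 5 measured of 10.

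**Figure D4:**
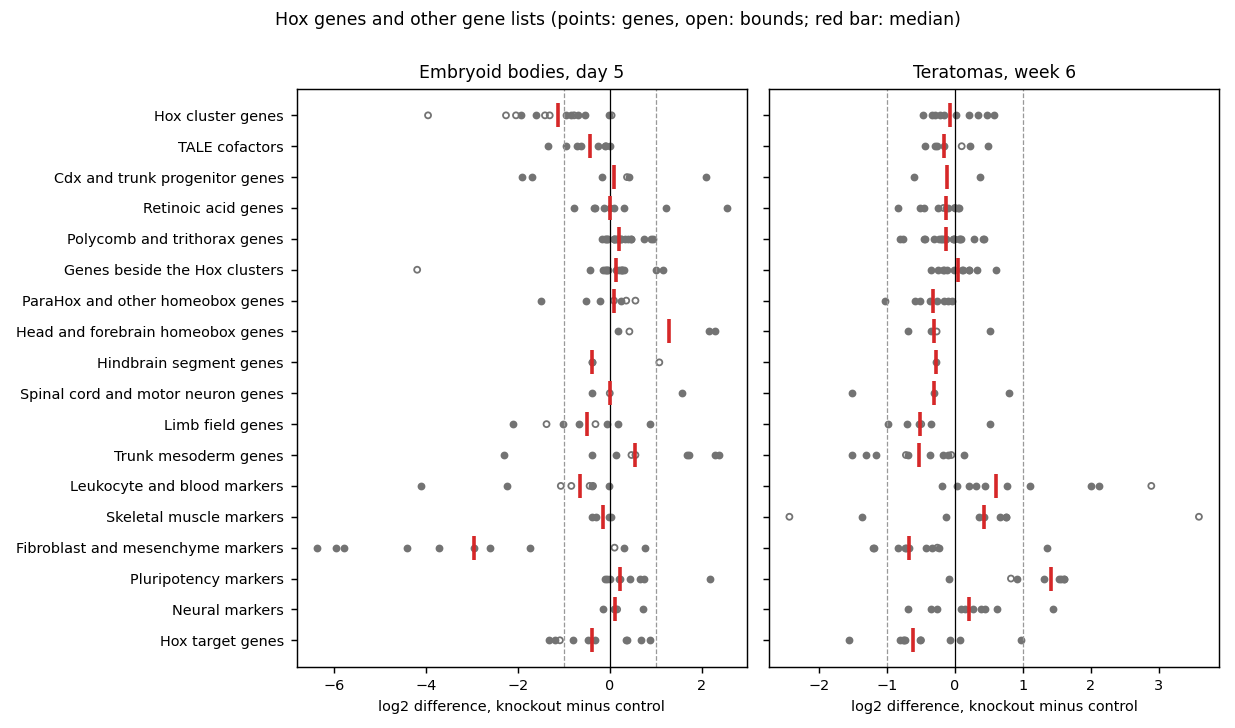
Log2 difference between knockout and control (horizontal axis) for every measured gene of each list (vertical axis) in embryoid bodies (left) and teratomas (right); points are genes, open points are bounds, red bars are medians and dashed lines mark 2-fold. In embryoid bodies the Hox median is -1.13, the head homeobox median 1.29 (4 genes) and the fibroblast and mesenchyme median -2.96. The Hox median includes 6 genes above the floor only in the control, which had to be lower. Over the 7 above the floor on both arrays it is -0.84. In teratomas the Hox median is -0.07.

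The second comparison asked the same of week 6 teratomas. The control and knockout teratoma had the same 10 Hox genes at or above the floor, and 0 of these differed by 2-fold in either direction, where 1.07% of 12197 measured genes were lower and 3.25% higher. Differences ran from -0.46 for Hoxa9 to 0.57 for Hoxb5, 5 above and 5 below 0, with a median of -0.07 and a mean of 0.02, which differ in sign, beside a median of 0.06 for all genes. Few genes of any kind differed here, so the absence of a call says little about the set.

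The teratoma values themselves named a mostly anterior and middle set. Hoxa5 read 7.14 in the control and 7.16 in the knockout, Hoxc4 7.38 and 7.16, Hoxb3 7.06 and 6.78, and Hoxb2 7.18 and 7.02. Hoxa9 read 6.75 and 6.28, Hoxd9 6.46 and 6.80, Hoxb4 6.05 and 6.26, and Hoxd8 5.79 and 5.46. Hoxb5 read 6.14 and 6.71 and Hoxa3, which patterns the third pharyngeal arch, 5.39 and 5.87, the first of these pairs being the widest of the 10. None of these pairs was as far apart as 2-fold. Of the posterior genes, Hoxa9 and Hoxd9 were above the floor in both teratomas, and Hoxa10, Hoxa11, Hoxa13, Hoxc10, Hoxd10, Hoxd11, Hoxd12 and Hoxd13 lay below it in both.

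Host and tissue markers differed between the teratomas, and their part in the Hox values was not tested. Of 11 leukocyte and blood markers 10 were measured and 4 were higher, the log2 summed level being 11.56 in the control and 12.00 in the knockout, and Hba-a1 was below the floor on every array. The leukocyte gene Ptprc differed by 2.12 and the neutrophil gene S100a8 by at least 2.89. Of 10 skeletal muscle markers 9 were measured, 1 higher and 2 lower. The myosin genes Myh2 and Myh4 differed by at least 3.59 and at least -2.44, the summed levels being 12.74 and 13.34, and Myod1 was below every floor. Of 11 fibroblast and mesenchyme markers 2 were lower and 1 higher (median -0.67), and of 8 measured pluripotency markers 5 were higher (median 1.42). All 10 neural markers were above the floor in both teratomas, with a median difference of 0.21.

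The teratomas were then set against the embryoid bodies within each genotype. Setting, age, host tissue and RNA extraction (columns for embryoid bodies, Trizol for teratomas) change together here and cannot be told apart. These comparisons share their arrays with those above, so a gene high in the control embryoid body alone is low in both. In control cells, Hoxa5 and Hoxc4 were higher in the teratoma, at least 5.38-fold and 2.54-fold. Hoxc8, Hoxc10, Hoxb6, Hoxc9, Hoxb4 and Hoxd9 were lower, the first 4 with a bound, at least 12.1-fold, 3.75-fold, 3.23-fold and 2.29-fold, and the other two by 2.58-fold and 2.26-fold. So 2 of 15 measured members were higher and 6 lower, where 16.2% and 19.0% of 12956 genes were. Of the 15, 7 entered through 1 array only, which fixed their direction. Of the 8 above the floor on both arrays, 1 was higher and 2 (25%) were lower. Of 10826 such genes over the array, 20.5% were lower.

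In knockout cells 5 of 13 measured members were higher and 0 lower, where 19.8% of 12936 genes were higher and 19.8% lower. Hoxc4 and Hoxa5 were again higher, at least 5.40-fold and at least 5.39-fold, followed by Hoxb5 at least 3.94-fold, Hoxa9 at least 2.93-fold and Hoxa3 at least 2.20-fold. On their chosen probe sets all 5 lay below the floor in the knockout embryoid body, and so could only be higher. Another 5 members were above the floor on both arrays, and of these 0 were 2-fold higher and 0 lower. Of 10755 such genes over the array, 1738 were higher and 2275 lower. Hoxb4 differed by -1.37 in control and 0.76 in knockout cells, Hoxd8 by -0.66 and 0.62, and Hoxd9 by -1.18 and 0.003. The median was -0.66 in control and 0.62 in knockout cells, beside -0.18 and -0.15 over all genes, and without a floor it was -0.15 and -0.03 beside -0.20 and -0.22.

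**Figure D5:**
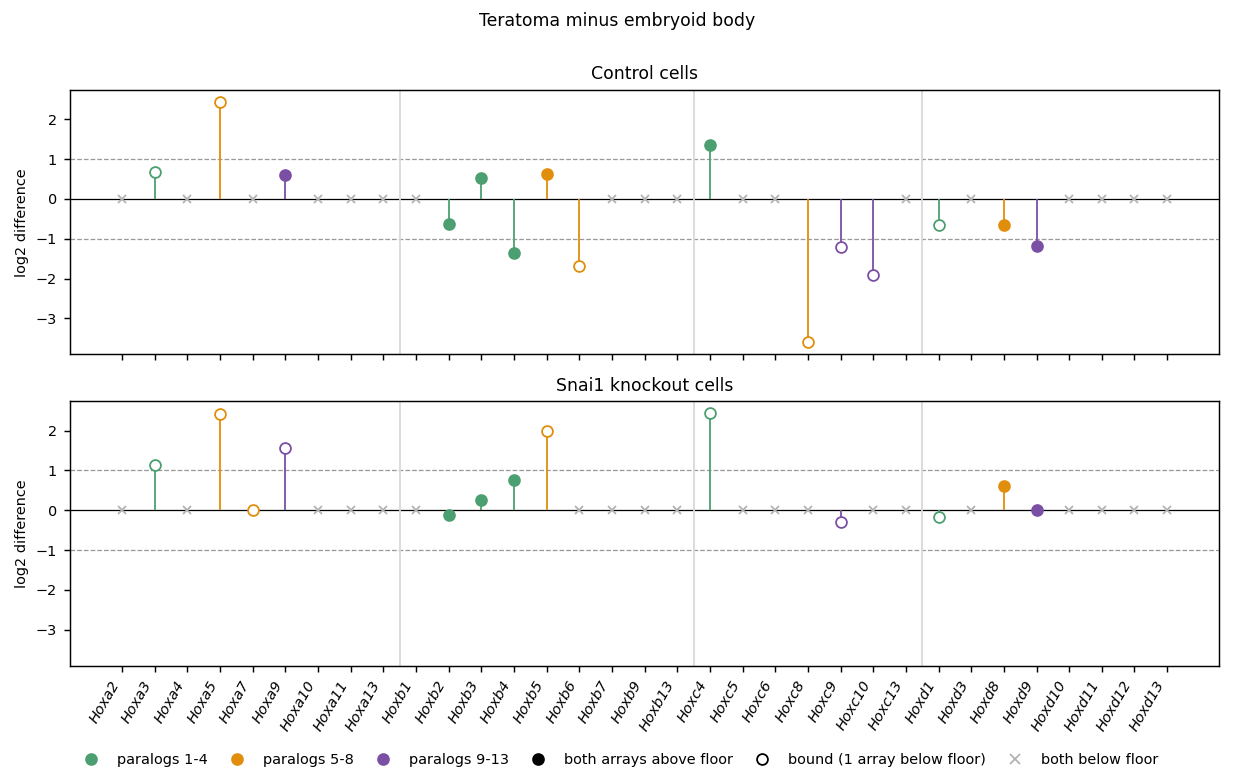
Log2 difference between teratoma and embryoid body (vertical axis) for each Hox gene (horizontal axis, by cluster and paralog number) in control cells (top) and knockout cells (bottom); colours give paralog classes, open points are bounds and grey crosses are genes below both floors. In control cells 6 genes lie at or below -1 and 2 at or above 1, and in knockout cells 0 and 5. Those 5 were below the floor in the knockout embryoid body and could only be higher. In control cells 7 genes are bounds, whose direction was fixed in the same way.

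Probe sets disagreed for the Hoxa5 and Hoxa9 differences between settings. The chosen Hoxa5 probe set read 4.70 and 4.36 in control and knockout embryoid bodies, below the floor. The other, of shared sequence, read 6.06, 5.61, 5.39 and 5.32 on the arrays of control and knockout embryoid bodies and control and knockout teratomas, which is -0.67 in control and -0.28 in knockout cells. The other Hoxa9 probe set differed by -0.39 in control and -0.10 in knockout cells, where the chosen one differed by 0.61 and at least 1.55. For Hoxb3 the other probe set differed by 1.21 and 1.61, above 2-fold, where the chosen one differed by 0.53 and 0.27. Centring each array on its median moved the median of all genes from -0.18 to -0.55 in control cells and from -0.15 to -0.46 in knockout cells. The Hox split became 1 higher and 9 lower in control cells and 4 higher and 0 lower in knockout cells, and the share of all genes called lower in control cells went from 19.0% to 31.6%.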

How the data were processed

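For 4 arrays, log2 values of each probe set were deposited. Per the submitters' processing notes they were made with affy and RMA, which corrects background, normalizes by quantiles and summarises probes. The sources used here give neither versions nor the chip definition, nor say if all arrays were normalized jointly. Of 45101 probe sets 64 were controls, 34945 of the rest named 1 gene and 932 several. Gene names come from the platform annotation, and 34741 of the 1-gene probe sets matched RefSeq (GRCm38.p6), which changed 0 Hox symbols. A gene with several probe sets was read by the one whose 4-array mean was highest. Values below an array's median were set to it, and a bound whose direction this would turn was set to 0. Medians over members include bounds.

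The number of arrays limits the precision. Every Hox gene may be named. From each other list at most 4 genes with the largest differences, and genes below every floor, are named. The members and lists were chosen with earlier results of these data known. Alternatives covered probe sets, scaling, floor and fold threshold. The steps were tested on simulated data. Python 3.11.15, pandas 2.3.3 and numpy 2.4.6 were used.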

Additional observations from a re-analysis of the deposited data

Results flagged for a closer look

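For 3 Hox genes the knockout and control arrays differed in opposite directions in the 2 settings, by amounts at least 2-fold apart, and with 1 array a group this difference was not tested. Hoxb4 was -1.92 in embryoid bodies and 0.21 in teratomas, 2.13 apart. With the mean of its probe sets it was -1.21 and -0.045, so the opposite direction was lost. Hoxb5 was at least 0.77 lower in embryoid bodies and 0.57 higher in teratomas, at least 1.35 apart. Hoxd9 was -0.84 and 0.34, 1.18 apart. Each teratoma difference alone is under 2-fold, and those of Hoxb4 and Hoxd9 are near the 0.28 spread between probe sets of a gene.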

How the results depend on the processing

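No paired analysis was possible because the labels carry no replicate numbers and each group has 1 array, and no array could be left out. No single-gene value called at 2-fold turned its sign under the alternatives scored gene by gene, which left out single probe sets. Between settings the other Hoxa5 probe set did turn, to -0.67 in control and -0.28 in knockout cells. The other Hoxa9 probe set turned to -0.10 in knockout cells. The Hox median of knockout teratoma against knockout embryoid body also turned, from 0.62 to -0.034 without a floor. Of 338 single-gene values under the alternatives, 297 stayed within the spread between probe sets and 41 moved beyond it. Not all could move: 22 of the 33 members have 1 probe set, so averaging left them unchanged. A gene below both floors under an alternative was not counted. For knockout against control embryoid bodies, 7 lower genes became 2 with the floor at the 65th percentile and 11 at a 1.5-fold threshold. The median of -1.13 became -0.39 with the floor at the 25th percentile, -0.69 at the 65th and -0.18 with none. Under the mean of probe sets Hoxa9 was no longer 2-fold lower. Without probe sets of the suffixes _a, _s and _x Hoxb6 was not read. Counting a gene if any of its probe sets was 2-fold lower, an alternative chosen after seeing the data, gave 7 genes. The chosen probe sets are among those counted, so this number could not fall below 7. Hoxb5 joined the lower genes with no floor and with that at the 25th percentile. Counts of Hox genes at or above the floor were 28, 27, 24 and 23 with the floor at the 25th percentile (control and knockout embryoid body, control and knockout teratoma), and 3, 6 and 6 at the 65th in the last 3. Control teratoma against control embryoid body gave 1 higher gene with the mean of probe sets, with median scaling, with the 65th percentile floor and at 3-fold, and 5 at 1.5-fold. It gave 3 lower genes with the 65th percentile floor and at 3-fold. Knockout teratoma against knockout embryoid body gave 3 higher genes with the mean of probe sets and at 3-fold and 0 with the 65th percentile floor, and 1 lower gene with the 25th percentile floor and 2 with none. The cause of these changes was not tested, beyond the fewer genes a higher floor leaves. Depth is unknown for arrays, and genes near the floor limit every bound.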

Other observations

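Lists not described above are given as values. Of 20 other homeobox genes 7 were measured in embryoid bodies, with a median of 0.09, and Msx1, a gene of limb buds and crest, was lower at 7.49 against 8.99. In teratomas 8 were measured with a median of -0.32, and Dlx2, of forebrain and crest, differed by -1.02. Of 9 spinal cord and motor neuron genes 3 were measured in both settings, and Isl1 differed by 1.57 in embryoid bodies and -1.51 in teratomas. Mnx1, Isl2, Lhx3, Lhx4, Chat and Slc18a3 lay below every floor. Genes described as Hox targets elsewhere had medians of -0.40 over 10 measured genes in embryoid bodies and -0.62 over 10 in teratomas. In embryoid bodies 3 were lower, among them the adhesion gene Ncam1 at -1.33 and the growth arrest gene Gas1 at -1.19, and in teratomas 1 was, Igfbp1 at -1.56. Hindbrain segment genes had a single measured member in teratomas, Epha4 at -0.28. Limb field and trunk mesoderm genes had teratoma medians of -0.51 and -0.53. Cdx and trunk progenitor genes had 2 measured members there, with a median of -0.11, head homeobox genes a median of -0.31, retinoic acid genes one of -0.12 and the genes beside the clusters one of 0.05. Skeletal muscle markers had a median of -0.15 in embryoid bodies.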
